A study of Mus musculus with 16 samples.

Results

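The flavin monooxygenases measured here were Fmo1, Fmo2, Fmo4 and Fmo5, chosen by gene symbol. Each was represented by 1 probe set of an Affymetrix whole-transcript array that was paired with that symbol alone, and these are 4 of the 19935 genes tested. Whole livers of male mice were profiled, 1 array per mouse, by genotype and feeding. The groups were 3 PPARβ/δ knockout mice fasted for 24 h, 4 knockout mice that were fed, 5 wild-type mice fasted for 24 h and 4 wild-type mice that were fed, 16 arrays in all. Both genotypes were on a mixed Sv129 and C57Bl/6 background. The labels used here state neither age nor which part of the gene was deleted, nor whether all tissues lack it. They describe the arrays as biological replicates, taken here as 1 mouse each.

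Flavin monooxygenases are enzymes of the endoplasmic reticulum that use FAD, NADPH and oxygen to add an oxygen atom to soft nitrogen or sulfur atoms in drugs, dietary amines and thioethers. The family is a counterpart of the microsomal cytochromes P450 but needs no separate reductase. Fmo1 acts on a wide range of drugs and can make taurine from hypotaurine. Fmo5 is a main liver form that can work as a Baeyer-Villiger monooxygenase, Fmo2 is best known from lung, and the substrates of Fmo4 are poorly defined. The product of Ppard, PPARβ/δ, is a fatty acid receptor of the nuclear receptor family.

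In the GRCm38.p6 gene order, Fmo4, Fmo1 and Fmo2 follow each other on chromosome 1 and Fmo5 lies on chromosome 3, while Ppard is on chromosome 17. RefSeq promoter windows of that build, from 250 bases before to 50 bases after a transcription start, were matched for 3 of the 4 genes, Fmo2, Fmo4 and Fmo5. They are printed because Fmo2 was the member whose RNA changed with fasting, and the windows of Fmo4 and Fmo5 stand beside it for comparison. Each is given 5′ to 3′ on the gene's own strand, and capitals mark every match to the motifs listed after the sequences.
Fmo2 upstream start, chr1:162898709-162899008, minus strand: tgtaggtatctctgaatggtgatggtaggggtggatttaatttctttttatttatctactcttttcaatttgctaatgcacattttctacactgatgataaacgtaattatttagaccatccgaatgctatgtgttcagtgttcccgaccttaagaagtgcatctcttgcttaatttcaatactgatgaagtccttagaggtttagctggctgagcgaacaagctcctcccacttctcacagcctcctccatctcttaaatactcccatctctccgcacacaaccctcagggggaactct
Fmo2 downstream start, chr1:162898444-162898743, minus strand: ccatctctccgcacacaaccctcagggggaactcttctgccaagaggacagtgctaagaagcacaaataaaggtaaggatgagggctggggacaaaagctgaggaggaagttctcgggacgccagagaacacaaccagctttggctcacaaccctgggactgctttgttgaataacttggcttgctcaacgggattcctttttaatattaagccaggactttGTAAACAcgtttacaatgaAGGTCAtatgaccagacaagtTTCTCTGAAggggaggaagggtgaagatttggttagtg
Fmo4, chr1:162812500-162812799, minus strand: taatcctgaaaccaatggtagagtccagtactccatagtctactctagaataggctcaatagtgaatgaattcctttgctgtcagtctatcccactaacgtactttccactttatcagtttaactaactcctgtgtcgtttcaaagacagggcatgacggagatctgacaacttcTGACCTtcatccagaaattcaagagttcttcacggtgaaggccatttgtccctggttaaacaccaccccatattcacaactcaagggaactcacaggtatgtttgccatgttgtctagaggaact
Fmo5, chr3:97628769-97629068, plus strand: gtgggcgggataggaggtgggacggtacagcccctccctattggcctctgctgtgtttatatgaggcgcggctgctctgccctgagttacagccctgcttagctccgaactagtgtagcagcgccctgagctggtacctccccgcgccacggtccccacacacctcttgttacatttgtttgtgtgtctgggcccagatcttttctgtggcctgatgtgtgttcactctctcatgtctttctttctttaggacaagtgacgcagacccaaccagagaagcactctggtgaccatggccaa

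Both strands were searched for 8 motifs, chosen after the sequences had been seen, and shares are of all 32851 mouse promoter windows of this length. The forkhead motif GTAAACA, held by 3.65% of windows, was found at bases 223 to 229 of the downstream Fmo2 window. The nuclear receptor core AGGTCA, held by 16.3% of windows, lay at bases 242 to 247 of the same window and, on the other strand, at bases 176 to 181 of the Fmo4 window. The STAT5 motif TTCNNNGAA, held by 8.3% of windows, lay at bases 263 to 271 of the downstream Fmo2 window. A direct repeat of AGGTCA with 1 base between the copies (0.0396% of windows), which contains the core, had no match in these 4 windows, and neither had the glucocorticoid receptor palindrome, AGAACA and TGTTCT with 3 bases between them (0.00913%), the antioxidant response motif TGACNNNGC (12.4%), the E-box CACGTG (7.15%) or the dioxin receptor core GCGTG (32.4%). The upstream Fmo2 window and the Fmo5 window held none of the 8 motifs. These matches are letters in a sequence and say nothing of binding. The Fmo5 window was 56% G and C with 10 CpG sites, against 41.3% and 47.7% with 5 sites in each of the Fmo2 windows and 42.7% with 4 sites in the Fmo4 window. The median of all windows was 52.7% with 7 CpG sites.

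Some arrays stood apart in ways that touch the values below. Ppard itself had log2 intensities of 4.36 to 4.58 in knockout fasted, 4.45 to 5.00 in knockout fed, 4.40 to 4.67 in wild-type fasted and 4.78 to 5.50 in wild-type fed mice, and knockout minus wild-type was -0.08 ± 0.16 in fasted (adjusted p = 0.908) and -0.39 ± 0.15 in fed mice (adjusted p = 0.266), so its probe set does not check the genotype labels. Hepatocyte markers were strong on every array, with Alb, the albumin gene, at a mean log2 intensity of 12.3. An acute phase list of 18 genes had a mean deviation from each gene's average of 1.94 in knockout fed mouse 4 and 1.18 in knockout fed mouse 1, against -0.73 to 0.59 in the other 14 mice. Pancreas markers (7 genes) stood at 2.14 in wild-type fasted mouse 5, against -0.32 to 0.22 elsewhere, and stellate cell and fibroblast markers (10 genes) at 0.75 in wild-type fed mouse 4, against -0.34 to 0.34 elsewhere. In whole liver, fewer cells of a type and less RNA per cell cannot be told apart.

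Fmo2 was the 1 member that fasting changed past the threshold, and it rose in both genotypes. Knockout fasted mice had log2 intensities of 6.55, 7.18 and 7.24, against 4.83, 4.31, 4.86 and 5.17 in knockout fed mice. Geometric mean intensities were 127 in knockout fasted and 27.7 in knockout fed mice, and 93.9 in wild-type fasted and 32.8 in wild-type fed mice. Every knockout fasted mouse lay above every knockout fed mouse, with a gap of more than 1 log2 unit between the groups. The rise was 2.20 ± 0.32 on the log2 scale (SE of the limma fit), or 4.59-fold, with a 95% interval of 1.52 to 2.88 and an adjusted p of 0.00108. It was the ninth largest of the 373 rises called in knockout mice.

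Wild-type mice showed the same direction. Fasted wild-type livers had log2 intensities of 6.19, 5.95, 7.25, 6.99 and 6.38, against 4.94, 4.60, 4.74 and 5.87 in fed livers. The groups did not overlap, but wild-type fed mouse 4, at 5.87, lay only just under the lowest fasted mouse, at 5.95. The rise was 1.52 ± 0.28, or 2.86-fold, with a 95% interval of 0.92 to 2.11 and an adjusted p of 0.00234, and it ranked 47th among the 658 called rises. Without wild-type fed mouse 4 it was 1.79 (adjusted p = 0.00056). That mouse also had the highest stellate cell and fibroblast score given above, and the part of those cells in its Fmo2 value was not tested. The summed intensity of these 10 markers was 1166 to 1233 in knockout fasted, 894 to 1139 in knockout fed, 898 to 1166 in wild-type fasted and 1009 to 1407 in wild-type fed mice. In wild-type mice 2 of the 10 fell with fasting and none rose, namely the collagen gene Col3a1 at -0.80 (adjusted p = 0.0544 without wild-type fed mouse 4) and the proteoglycan gene Lum at -0.61. The median change of the 10 was 0.14 in knockout and -0.30 in wild-type mice, against -0.02 and 0.02 over all genes. Of all genes 5.92% were called lower with fasting in wild-type mice. Adipocyte markers (5 genes), which stood at 0.62 in wild-type fasted mouse 1 and at -0.23 to 0.23 elsewhere, had mean log2 intensities of 1.97 for Adipoq, 2.22 for Lep, 2.78 for Retn, 2.92 for Plin1 and 3.72 for Cidec, whose highest value was 6.98, where genes under a mean of 2.79 were taken as dim. Their part in the Fmo2 values was not tested.

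**Figure D1:**
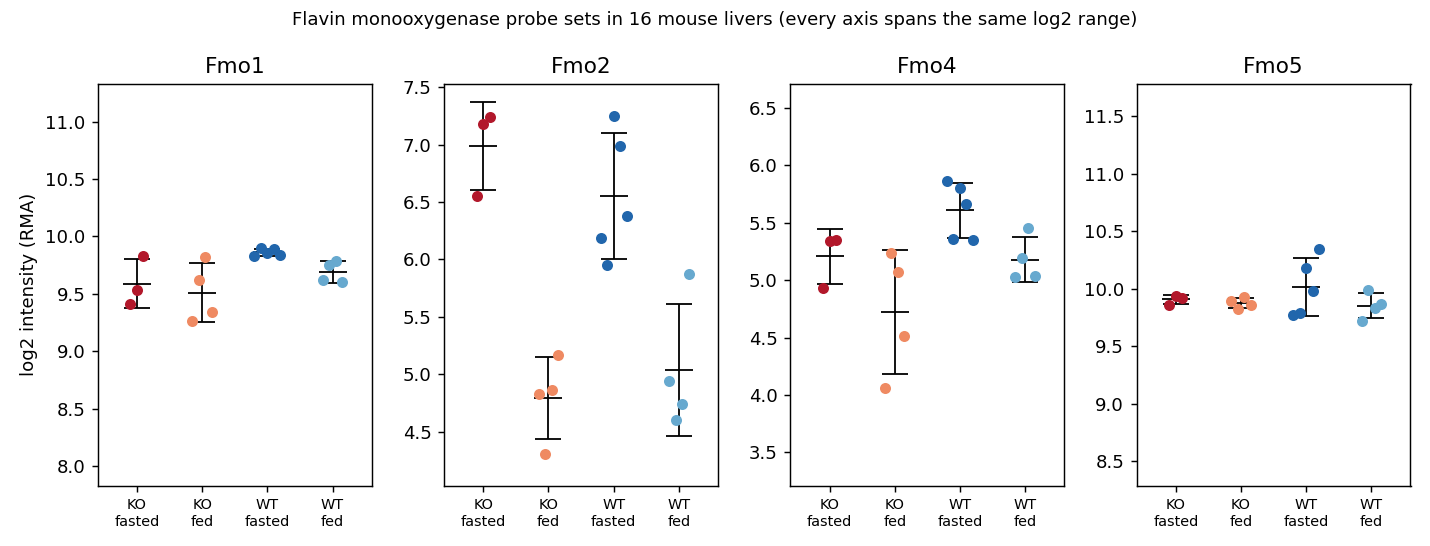
Log2 intensity of each flavin monooxygenase probe set (vertical axis, same span in each panel) by group, knockout (KO) and wild type (WT), with 1 point per mouse and bars for mean and SD. Fmo2 is separated by feeding in both genotypes, at 5.95 and above in fasted and 5.87 and below in fed mice, while the Fmo5 values of all groups overlap.

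The fasting rise of Fmo2 did not differ between genotypes by the test of the difference itself. The knockout response minus the wild-type response was 0.68 ± 0.43, with a 95% interval of -0.22 to 1.59 and an adjusted p of 0.523, so the interval holds both no difference and a response 1.59 log2 units larger in knockout mice. The order of the group means was knockout fasted at 6.99 ± 0.38, wild-type fasted at 6.55 ± 0.55, wild-type fed at 5.04 ± 0.57 and knockout fed at 4.79 ± 0.35 (SD, n = 3, 5, 4 and 4). Only the step between wild-type fasted and wild-type fed in this order was larger than the spread. Between genotypes Fmo2 gave 0.44 ± 0.31 in fasted mice (adjusted p = 0.684) and -0.24 ± 0.30 in fed mice (adjusted p = 0.761), and in both the groups overlapped. Its spread within groups, a residual SD of 0.49, was above that of 97.8% of the 11961 genes that were not dim, whose median was 0.17.

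Set against the whole array, 1 of the 4 members was called in each fasting comparison. In knockout mice 3.67% of all genes were called, 1.87% higher and 1.8% lower. In wild-type mice 9.22% were called, 3.3% higher and 5.92% lower. The groups did not overlap for 1 member (Fmo2) in the knockout fasting comparison, where 13.2% of all genes did not, and for 2 members (Fmo1 and Fmo2) in the wild-type one, where the share was 12.2%. The median change of the members was 0.28 in knockout and 0.30 in wild-type mice, against -0.02 and 0.02 over all genes. With 4 members these counts describe the family and no more. The fasting comparisons of the genotypes share no arrays, whereas each genotype comparison uses arrays of a fasting comparison too.

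Fmo4 lay lower in knockout mice and higher in fasted mice, and none of these differences passed. Its log2 intensities were 4.93, 5.34 and 5.35 in knockout fasted, 4.06, 5.24, 5.07 and 4.51 in knockout fed, 5.86, 5.36, 5.80, 5.66 and 5.35 in wild-type fasted and 5.03, 5.19, 5.45 and 5.04 in wild-type fed mice. Every knockout fasted mouse was at or below the lowest wild-type fasted mouse, by a margin under 0.01 for the closest pair, and knockout fed mice 1 and 4 were the lowest of all 16. Group means were 5.61 ± 0.24 in wild-type fasted, 5.20 ± 0.24 in knockout fasted, 5.18 ± 0.20 in wild-type fed and 4.72 ± 0.54 in knockout fed mice (SD, n = 5, 3, 4 and 4), and no neighbours in this order differed past the threshold where compared. Fasted minus fed was 0.48 ± 0.22 in knockout mice (adjusted p = 0.311) and 0.43 ± 0.20 in wild-type mice (adjusted p = 0.202). Knockout minus wild-type was -0.40 ± 0.21 in fasted mice (adjusted p = 0.551) and -0.46 ± 0.21 in fed mice (adjusted p = 0.355), and the mean of both was -0.43 ± 0.15 (adjusted p = 0.223). The intervals of these 5 values reached from -0.89 at the lowest to 0.96 at the highest, and the unadjusted p was 0.0105 for the mean genotype difference.

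Fmo1 varied less within groups than Fmo4, with a residual SD of 0.16 against 0.33, and its lower values in knockout mice did not pass either. Knockout fasted mice had log2 intensities of 9.41, 9.53 and 9.83 and wild-type fasted mice 9.83, 9.90, 9.86, 9.89 and 9.84. Knockout fed mice had 9.26, 9.62, 9.82 and 9.34, against 9.62, 9.75, 9.79 and 9.60 in wild-type fed mice. The wild-type fasted mice lay within 0.07 of each other (SD 0.03, n = 5), above all wild-type fed mice, while knockout fasted mice had an SD of 0.21 (n = 3). Group means, from high to low, were 9.86 in wild-type fasted, 9.69 in wild-type fed, 9.59 in knockout fasted and 9.51 in knockout fed mice. The difference between genotypes was -0.27 ± 0.11 in fasted mice (adjusted p = 0.418), -0.18 ± 0.11 in fed mice (adjusted p = 0.521) and -0.23 ± 0.08 in the mean of both (adjusted p = 0.238, interval -0.40 to -0.06). Fasted minus fed was 0.08 ± 0.12 in knockout mice (adjusted p = 0.843) and 0.17 ± 0.11 in wild-type mice (adjusted p = 0.346).

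The low values of Fmo1 and Fmo4 in fed knockout livers fell in the same mice. Knockout fed mice 1 and 4, which had the highest acute phase scores, gave the lowest values of both genes on any array. Mouse 1, with the lower score of these mice, had the lower value of each gene. Knockout fed mouse 3, at a score of 0.59, had 9.82 for Fmo1 and 5.07 for Fmo4. Mouse 2, at -0.26, had 9.62 and 5.24. As mice 1 and 4 were the lowest, leaving them out had to raise the knockout fed means, and only mice 2 and 3 remained in that group. Without mice 1 and 4 the fed genotype difference was 0.03 ± 0.11 for Fmo1 and -0.02 ± 0.17 for Fmo4. The fasting change in knockout mice was then -0.13 ± 0.11 for Fmo1 and 0.05 ± 0.18 for Fmo4 (adjusted p = 0.739 or more for each of these differences). The fasted genotype differences rest on other arrays and stayed at -0.27 ± 0.09 for Fmo1 and -0.40 ± 0.14 for Fmo4 in that fit (adjusted p = 0.26 and 0.303). The part of the acute phase state in the fed values was not tested.

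**Figure D2:**
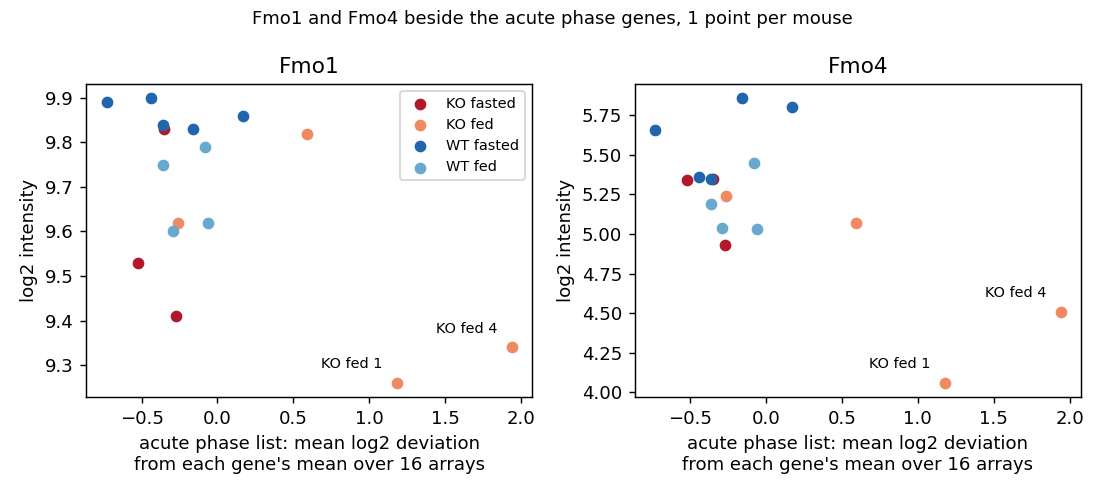
Log2 intensity of Fmo1 and Fmo4 (vertical axes) against the mean log2 deviation of 18 acute phase genes (horizontal axis), 1 point per mouse. Knockout fed mice 1 and 4, at 1.18 and 1.94 on the horizontal axis, are the lowest points of both panels.

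Fmo5, a main hepatic form, passed in no comparison. Its residual SD of 0.16 was near the median of 0.17 and above that of 41% of the genes that were not dim. Its log2 intensities were 9.86, 9.94 and 9.92 in knockout fasted, 9.89, 9.82, 9.93 and 9.86 in knockout fed, 9.77, 9.79, 10.18, 9.98 and 10.35 in wild-type fasted and 9.72, 9.99, 9.83 and 9.87 in wild-type fed mice. All groups overlapped, with means of 10.01 ± 0.25 in wild-type fasted, 9.90 ± 0.04 in knockout fasted, 9.88 ± 0.05 in knockout fed and 9.85 ± 0.11 in wild-type fed mice. The highest value, 10.35, came from wild-type fasted mouse 5, the mouse with the high pancreas markers, and the summed intensity of those markers there was 357, against 56.4 to 82.3 on the other arrays. Fasted minus fed was 0.03 ± 0.12 in knockout mice (interval -0.22 to 0.28, adjusted p = 0.958) and 0.16 ± 0.10 in wild-type mice (interval -0.06 to 0.38, adjusted p = 0.374), and 0.08 in wild-type mice without mouse 5 (adjusted p = 0.701). Knockout minus wild-type was -0.11 ± 0.11 in fasted and 0.03 ± 0.11 in fed mice. A change of more than 0.38 log2 units in any of these 4 comparisons lies outside the intervals.

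No member was called between genotypes by limma. In fed mice 0 of 4 were called (background 0.677%, with 0.451% called higher) and Fmo4 alone had an unadjusted p under 0.05. In fasted mice 0 of 4 were called (background 0.537%) and Fmo1 alone had an unadjusted p under 0.05. For knockout fasted against wild-type fasted mice the groups did not overlap for Fmo1 and Fmo4, against 8.25% of all genes, and in fed mice for none of the members, against 6.7% of all genes. Both separations in fasted mice were near ties. The highest knockout and lowest wild-type intensities were 909 and 911 for Fmo1, and 40.7 and 40.8 for Fmo4. In the mean of both feeding states 0 of 4 were called (background 1.55%), with 2 at an unadjusted p under 0.05, Fmo1 and Fmo4. For the difference of the fasting responses 0 of 4 were called and none had an unadjusted p under 0.05 (background 0.01%). Kupffer cell and macrophage markers (8 genes) had a summed intensity of 706 to 839 in knockout fasted mice, against 448 to 730 in wild-type fasted mice, and of 951 to 1019 in knockout fed mice, against 580 to 698 in wild-type fed mice. In the mean genotype difference 5 of these 8 were called higher and none lower. That count was 2 without knockout fed mice 1 and 4, and 1 when wild-type fed mouse 4 and wild-type fasted mouse 5 were left out too. Without knockout fasted mouse 3 the calls of Csf1r and Vsig4 were lost (adjusted p = 0.0722 and 0.1). The markers' part in the Fmo1 and Fmo4 values was not tested.

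**Figure D3:**
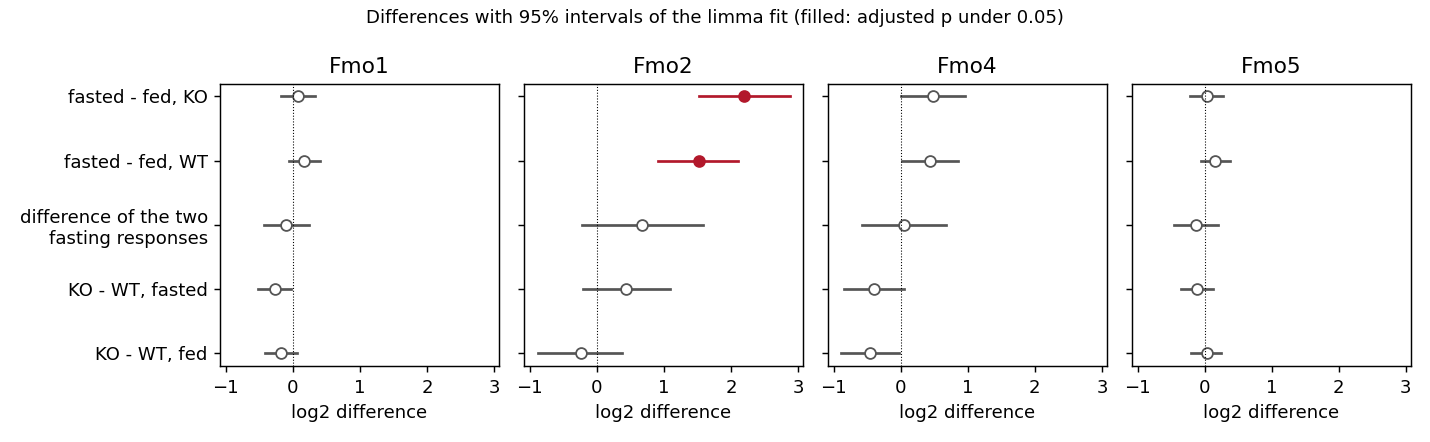
Log2 differences (horizontal axis) of the 4 genes in the fasting comparison of knockout (KO) and wild-type (WT) mice, their difference, and the genotype comparison in fasted and fed mice, with 95% intervals. The filled points are the rises of Fmo2, 2.20 in knockout and 1.52 in wild-type mice, and all other points are open.

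Of the 10 nearest tested genes outside the run of Fmo4, Fmo1 and Fmo2, 5 on each side (a window chosen after the data were seen), none was called in the knockout fasting comparison, with changes of -0.17 to 0.13. In wild-type mice, where 9.22% of all genes were called, 1 of the 10 was called, at changes of -0.45 to 0.13. This was Kifap3, a kinesin adaptor gene chosen here after its values were seen, which changed by -0.45 (adjusted p = 0.0071). Dnm3os, Myocos, Mroh9, Prrx1 and Mettl11b, 5 of the 10, were dim, with mean log2 intensities of 1.89 to 2.51, so a change in them could hardly be seen. Fmo1, the tested gene next to Fmo2, gave 0.08 and 0.17 in these comparisons.

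**Figure D4:**
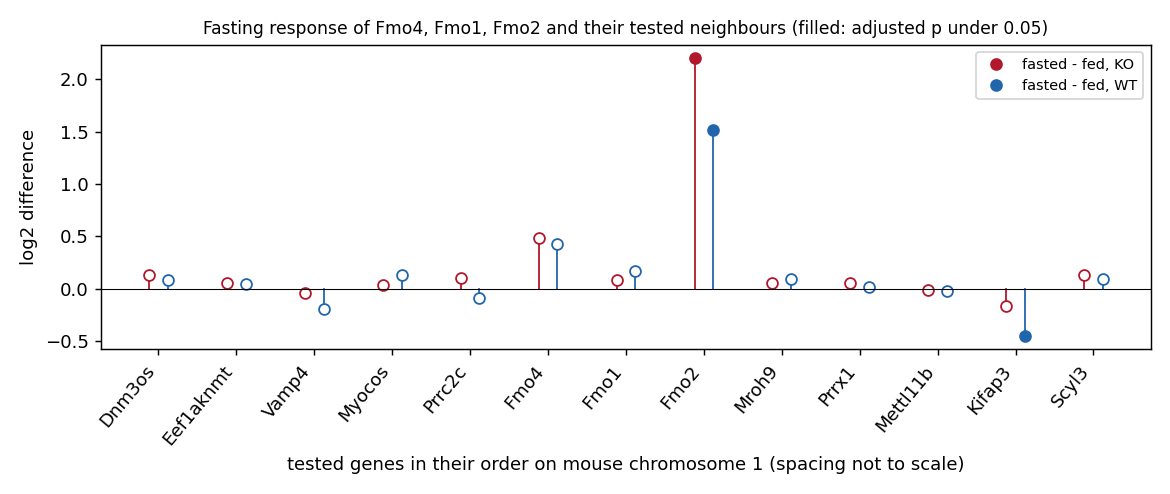
Fasted minus fed log2 difference (vertical axis) of 13 tested genes in chromosome order, in knockout (KO) and wild-type (WT) mice, with filled points where adjusted p was under 0.05. Fmo2 stands at 2.20 and 1.52, Fmo4 at 0.48 and 0.43, and every other gene between -0.45 and 0.17.

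The profiles most like that of Fmo2 were sought among 11534 named genes that were not dim, by the root mean square difference over the 16 arrays after each gene was centred on its own mean. The closest was Phf11c at 0.486 log2 units, followed by Setdb2 at 0.495, Fam13a at 0.517 and Trim24 at 0.520, against a root mean square deviation of 1.01 for Fmo2 itself. Setdb2 encodes a SET domain protein of the histone methyltransferase family, and Trim24 a coregulator of nuclear receptors. Their fasting changes in knockout and wild-type mice were 1.62 and 1.20 for Phf11c, 1.50 and 1.04 for Setdb2, 1.85 and 1.69 for Fam13a and 0.98 and 1.36 for Trim24. Setdb2 missed the threshold in wild-type mice (adjusted p = 0.053). Since these genes were picked for likeness to Fmo2 on the same arrays, a rise with fasting was built into the choice and is no separate result.

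**Figure D5:**
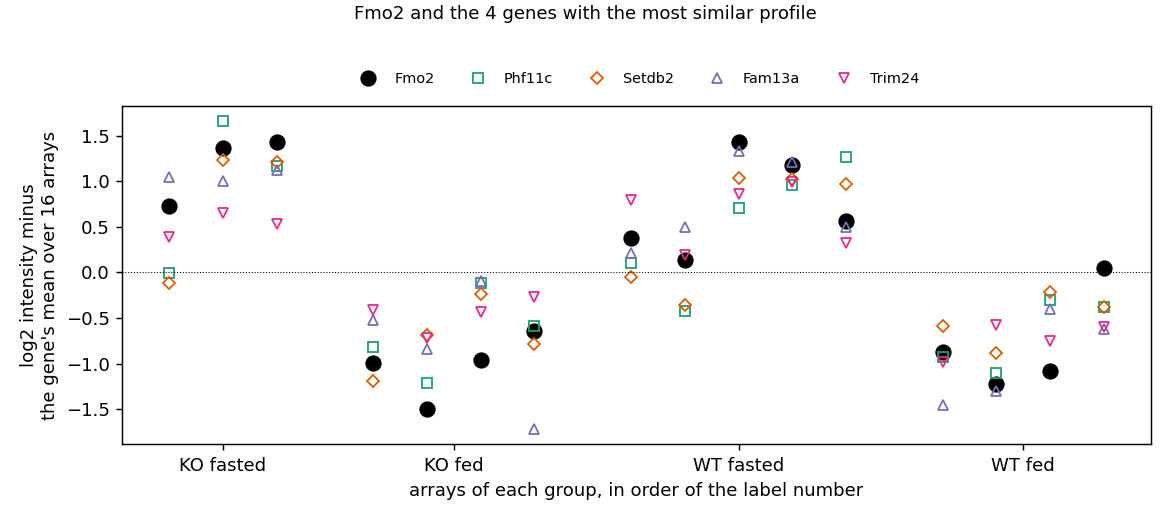
Log2 intensity minus the gene's mean over 16 arrays (vertical axis) for Fmo2 (filled) and the 4 genes nearest to it (open), array by array within each group of knockout (KO) and wild-type (WT) mice. All 5 genes are mostly above 0 in fasted and below 0 in fed mice, and Fmo2 in wild-type fed mouse 4 is just above 0. The 4 genes were chosen on these same arrays for this likeness.

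Genes that serve or accompany these enzymes were read from the same fit. With fasting, 1.87% of all genes were called higher and 1.8% lower in knockout mice, and 3.3% and 5.92% in wild-type mice. Of 12 measured genes of NADPH supply, the cofactor that flavin monooxygenases consume, none rose and 2 fell with fasting in knockout mice and 1 rose and 3 fell in wild-type mice, of which the fall of Aldh1l1 was lost without wild-type fed mouse 2 (adjusted p = 0.0649). The pentose phosphate enzyme gene Pgd changed by -1.09 ± 0.15 (knockout, adjusted p = 0.000535) and -0.92 ± 0.13 (wild-type, adjusted p = 0.00024). Idh1, a cytosolic isocitrate dehydrogenase, changed by -0.50 ± 0.09 in knockout mice (adjusted p = 0.00569) and -0.44 ± 0.08 in wild-type mice (adjusted p = 0.00204). The 1 rise was that of Nnt, the mitochondrial transhydrogenase, at 1.11 ± 0.13 in wild-type mice (adjusted p = 5.6e-05). Nnt was also higher in knockout than in wild-type fed mice, by 0.90 ± 0.14 (adjusted p = 0.00538, and 0.0492 without knockout fed mice 1 and 4). Me1, the cytosolic malic enzyme, was lower in knockout than in wild-type fasted mice, at -1.13 ± 0.24 (adjusted p = 0.0441). This call was lost on leaving out any 1 of 12 of the 16 arrays (highest adjusted p = 0.174, without knockout fasted mouse 1). In the mean of both feeding states Me1 was also lower in knockout mice, at -0.79 ± 0.16 (adjusted p = 0.0203, and 0.109 without knockout fed mice 1 and 4). The list's median change was -0.09 in knockout and -0.10 in wild-type mice, against -0.02 and 0.02 over all genes.

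The counts of the next 4 lists stand beside 3.67% of all genes called with fasting in knockout mice and 9.22% in wild-type mice. For flavin supply 3 of 5 listed genes were measured, and 1 rose in each genotype. This was Slc25a32, a mitochondrial carrier linked to folate and FAD, at 0.82 ± 0.12 in knockout mice (adjusted p = 0.00136) and 1.00 ± 0.11 in wild-type mice (adjusted p = 2.62e-05). Of 6 genes listed under microsomal electron transfer, 1 fell in knockout and 2 in wild-type mice, and none rose. The knockout call was Cyb5b, at -0.81 ± 0.16 (adjusted p = 0.00729). Cyb5b was also 1 of the 2 wild-type calls, at -0.93 ± 0.14 (adjusted p = 0.000359). It encodes the cytochrome b5 of the outer mitochondrial membrane, so its calls do not describe a microsomal protein. The knockout call of Cyb5b ended without knockout fasted mouse 3 (adjusted p = 0.0525). It also ended without knockout fed mice 1 and 4 (adjusted p = 0.0577). Cyb5r3, a cytochrome b5 reductase gene, fell by -0.59 ± 0.11 in wild-type mice (adjusted p = 0.00246). Of 10 genes of cysteine and taurine metabolism, the route of the Fmo1 product taurine, 1 rose in each genotype. This was the cysteine dioxygenase gene Cdo1, at 0.33 ± 0.08 in knockout mice (adjusted p = 0.0193) and 0.28 ± 0.07 in wild-type mice (adjusted p = 0.0135). Its knockout call was lost without knockout fed mice 1 and 4 (0.30, adjusted p = 0.169). Of 10 genes of methyl amine and choline supply, none was called in knockout mice by limma, while in wild-type mice 1 rose and 2 fell, with the choline kinase gene Chka at -1.78 ± 0.26 (adjusted p = 0.00037).

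Of 9 receptors and regulators that sense foreign chemicals, 2 rose in knockout and 4 in wild-type fasted mice against fed mice, and none fell. Over all genes 1.87% were called higher in knockout and 3.3% in wild-type fasted mice. The median change of the 9 was 0.21 in knockout and 0.33 in wild-type mice, against -0.02 and 0.02 over all genes. Nr1i3, which encodes the receptor CAR, rose with a log2 change of 1.51 ± 0.22 in knockout mice (adjusted p = 0.000998, and 1.02 without knockout fed mice 1 and 4) and 1.60 ± 0.19 in wild-type mice (adjusted p = 6.31e-05). Nr1i2, which encodes PXR, rose with changes of 0.71 ± 0.18 (knockout, adjusted p = 0.0304) and 0.90 ± 0.15 (wild-type, adjusted p = 0.00128). The knockout call of Nr1i2 was lost without knockout fed mice 1 and 4 (adjusted p = 0.139), which left 1 knockout call in the list. Leaving out any 1 of 5 single arrays also ended this Nr1i2 call (highest adjusted p = 0.106, without knockout fasted mouse 3). Of the wild-type calls, that of the bile acid receptor gene Nr1h4 was lost on leaving out some single arrays (highest adjusted p = 0.12).

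The sex-biased lists below stand beside all genes, of which 1.87% rose and 1.8% fell in knockout fasted mice. In wild-type fasted mice 3.3% of all genes rose and 5.92% fell. Among female-biased liver genes, 3 of 19 rose in knockout and 5 of 19 in wild-type fasted mice, and none fell. Without knockout fed mice 1 and 4 the knockout count was 1, Trim24. Trim24, also one of the genes nearest to Fmo2, rose with changes of 0.98 ± 0.17 (knockout, adjusted p = 0.00426) and 1.36 ± 0.15 (wild-type, adjusted p = 2.84e-05). Of 20 male-biased genes, 1 rose and none fell in knockout fasted mice, and 1 rose and 9 fell in wild-type fasted mice. Without knockout fed mice 1 and 4 neither rise was called, and the falls in wild-type mice numbered 9, or 6 when wild-type fed mouse 4 and wild-type fasted mouse 5 were left out too. The wild-type comparison holds no knockout mouse, so leaving out mice 1 and 4 could alter only its shared variance estimate, not its log2 changes. Wild-type fasted mouse 1 had a mean deviation of 0.22 over this list, against -0.64 to -0.36 in the other wild-type fasted mice. Hsd3b5, a steroid dehydrogenase of male liver, fell by -3.70 ± 0.25 in wild-type mice (adjusted p = 2.39e-07). Its response differed between genotypes by 2.72 ± 0.38 (adjusted p = 0.0284, which became 0.167 without knockout fed mice 1 and 4 and up to 0.0995 without single arrays), where Fmo2 gave 0.68 ± 0.43. The median change of the male-biased list was -0.05 in knockout and -0.38 in wild-type mice, against -0.02 and 0.02 over all genes. That of the female-biased list was 0.04 and 0.06, with 11 to 13 of its 19 genes dim on each array.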

How the data were processed

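The authors deposited 1 table of normalized probe set intensities, made with RMA per the submitters' processing notes; the RMA version and genome build are not given in those notes. The values were linear, with array medians of 8.08 to 8.61, and log2 was taken here. Of 35519 probe sets, 21780 were paired with 1 gene symbol by the platform annotation, 1605 with several and 12134 with none. The brightest probe set stood for a gene, which left 19935 genes.

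All 16 arrays entered 1 limma 3.58.1 fit (R 4.3.3, lmFit and eBayes) with 4 group means (residual degrees of freedom 12, prior 4.55). The 6 contrasts were tested two-sided, with Benjamini-Hochberg adjustment over all genes and a threshold of 0.05; printed p-values come from this fit unless an alternative or a left-out array is named beside them. Fits were tested on simulated data. The number of arrays limits the precision. Dim genes had a mean under the 40th percentile (log2 2.79).

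Named genes are the members, up to 4 called genes per list and contrast by smallest adjusted p, and the 4 nearest profiles of a called member. Members and lists were chosen with earlier results of these data known. Lists are described by counts, with no set test. Alternatives were other normalizations, filters, probe set rules, variance models, array weights, a replicate block, fits of 2 groups, and arrays left out.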

Additional observations from a re-analysis of the deposited data

How the results depend on the processing

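Under the 27 alternatives run for it, the fasting rise of Fmo2 kept its direction and stayed past the threshold in both genotypes, at 2.04 to 2.42 in knockout mice (adjusted p 0.000259 to 0.0108) and 1.34 to 1.84 in wild-type mice (adjusted p 0.00056 to 0.0122). Not all of these could move the size of the rise. Each member has 1 probe set, so the probe set rules kept its values. The dim gene filter, the variance model and leaving out a mouse of the other genotype changed only the variance or the adjustment. The count of members called was the same under every alternative in all 6 comparisons. Of the differences that did not pass, some changed sign; the cause was not tested. Without knockout fed mice 1 and 4, Fmo1 gave 0.0306 between genotypes in fed mice and -0.13 with fasting in knockout mice, Fmo4 gave -0.38 for the difference of the fasting responses, and Fmo2 gave -0.0071 for the mean genotype difference. Leaving out wild-type fed mouse 4 and wild-type fasted mouse 5 as well, chosen after seeing the data, gave -0.13 for Fmo1 with fasting in knockout mice, -0.40 for the Fmo4 difference of responses and 0.0032 for the mean genotype difference of Fmo5. Quantile normalization gave -0.0423 for the Fmo4 difference of responses, and centring on the median gave -0.0031 for Fmo5 between genotypes in fed mice.

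Leaving out 1 array at a time gave -0.28 to -0.09 for Fmo1, -0.39 to 0.0326 for Fmo2 and -0.0196 to 0.0711 for Fmo5 between genotypes in fed mice, -0.0413 to 0.18 for Fmo1 with fasting in knockout mice, and -0.22 to 0.0061 for Fmo1 and -0.17 to 0.22 for Fmo4 in the difference of responses. The labels number the mice alike across groups, but nothing says that a number pairs them. Deviations from the group means correlated above 0.1 in 6 of 21 same-numbered pairs and in 18 of 74 other pairs. The median correlation was 0.07 in same-numbered pairs and -0.04 in other pairs. With the replicate number as a block, the rise of Fmo2 was 2.38 in knockout and 1.56 in wild-type mice, the Fmo4 difference of responses was -0.0501 and the mean genotype difference of Fmo5 was 0.0027; no member's call changed.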

Other observations

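Fmo9, a family member of chromosome 1 with its own probe set, had log2 intensities of 1.98 to 2.20 in knockout fasted, 1.85 to 2.20 in knockout fed, 2.01 to 2.27 in wild-type fasted and 2.02 to 2.18 in wild-type fed mice, under the limit of 2.79 for dim genes on every array. Of the 10 tested genes nearest to Fmo5 on chromosome 3, 1 was called in any of the 6 comparisons. This was Acp6, a lysophosphatidic acid phosphatase gene chosen after its values were seen, which was lower in knockout than in wild-type fed mice by -0.61 (limma adjusted p = 0.0093) and by -0.44 in the mean of fed and fasted mice (adjusted p = 0.00419). Over all genes 0.677% were called in the fed genotype comparison and 1.55% in the mean of fed and fasted mice.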
